A study of Mus musculus with 8 samples.

Results

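The receptors by which natural killer (NK) cells sense other cells were followed in CT26 tumors, on the transcripts of 10 genes: Ncr1, Klrk1, Klrd1, Klrc1, Klrc2, Klrg1, Klrb1c, Klre1, Klra8 and Cd244. Members were the non-control probes of the scanner files whose gene name is 1 of these, over the 4 treatment groups. Of the 10 genes, 9 had a probe and Klrc2 had none. The 9 genes had 19 probes among 56605 on the array, and 17 of the 19 were tested because some group had both of its arrays well above background, which held for 31912 probes in all.

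CT26, a colorectal cancer line of BALB/c mice, was implanted under the skin at 500000 cells per mouse, and whole tumors were collected after 2 weeks of treatment. The groups were vehicle, TP-16 (named BY001 in the sample labels, an antagonist of the prostaglandin E2 receptor EP4, 75 mg/kg by mouth daily), an anti-PD-1 antibody (50 μg per mouse into the peritoneum, 2 doses a week) and the combination of both agents at the same doses. Each group had 2 samples, each on 1 one-colour Agilent array. All mice carried CT26 tumors and had an intact immune system, so each sample mixes tumor cells with whatever host cells were in the tumor, and fewer cells of a type and less RNA per cell cannot be told apart.

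NK cells kill without an antigen receptor and act on the balance between activating and inhibiting receptors. Most of the genes here lie in the NK gene complex of mouse chromosome 6 and encode C-type lectin-like proteins. The activating receptors signal through small adaptors such as DAP12 and DAP10 (Tyrobp and Hcst), and the inhibiting ones through phosphatases such as SHP-1 (Ptpn6). Many of these receptors are also put on by CD8 T cells once activated, while Ncr1, which encodes NKp46, is largely restricted to NK cells and other innate lymphoid cells.

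Since each value below is the signal of 1 probe of 60 bases, the probes set what can be read. Those on which the results turn are shown 5′ to 3′, with positions in the mm9 build from the array annotation. Capitals in the Klra8 probes mark the base at which their shared stretch differs.
Ncr1, A_51_P500882, chr7:4296176-4296235, plus strand: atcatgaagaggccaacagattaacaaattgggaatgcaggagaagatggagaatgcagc
Klrd1, A_51_P280947, chr6:129548391-129548450, plus strand: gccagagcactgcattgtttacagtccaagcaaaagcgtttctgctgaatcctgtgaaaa
Klrc1, A_55_P2004652, chr6:129628315-129628374, minus strand: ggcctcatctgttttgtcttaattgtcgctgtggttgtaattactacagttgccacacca
Klra8, A_52_P98698, chr6:130072163-130075094, minus strand: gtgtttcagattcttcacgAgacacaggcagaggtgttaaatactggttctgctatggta
Klra8, A_55_P2742960, chr6:130072149-130075080, minus strand: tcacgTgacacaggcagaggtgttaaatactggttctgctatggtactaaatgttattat
Cd244, A_52_P541344, chr1:173507474-173508000, plus strand: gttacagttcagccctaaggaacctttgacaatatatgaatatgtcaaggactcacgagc
The Ncr1, Klrd1 and Klrc1 probes each lie on 1 stretch of the genome, and all accessions they list that were found in RefSeq belong to the gene of that name. Both Klra8 probes span 2932 bases of the genome and so cross an exon junction, and the Cd244 probe spans 527.

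The probes of several genes are not independent readings. The 2 Klra8 probes above overlap over 46 bases and are identical at 45 of them, with the substitution A6T, counted from the 5′ end of A_55_P2742960. The 2 Klrk1 probes share 20 bases, ccttgatttcctcccagata. The accessions of the Klra8 probe A_52_P98698 also name the pseudogene Klra14-ps. Those of A_55_P2742960 and A_55_P2004526 also name Klra3 and Klra9, so none of the 3 is specific to Klra8. Klra8 encodes Ly49H, known to be missing from the BALB/c genome, and the NK1.1 epitope of the Klrb1c product is not found on NK cells of BALB/c mice. Signal of probes named Klra8 therefore cannot be taken as Klra8, and which gene it comes from was not tested.

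The 8 arrays lay on 1 slide and were scanned once. Between 51.4% and 59.7% of probes were well above background on an array, and the 75th percentile of intensity ran from 371 to 734. The 4 arrays of tumors that had received TP-16 (with or without antibody) lay in slide columns 3 and 4. They had 75th percentiles of 530 to 734, against 371 to 415 for the other 4. Slide column and TP-16 therefore cannot be told apart. Tumors given no antibody were all in slide row 1 and those given it in row 2, so row and antibody cannot be told apart either. Combination and vehicle thus differed in row as well as column. Correlation between the 2 arrays of a group was 0.9778 for vehicle and 0.9883 to 0.9915 for the treated groups.

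Under the combination, the probes named Klrb1c and Klra8 were higher than under vehicle by 1.77 to 2.38 on the log2 scale and passed the test. However, 3 of these 5 probes were measured above background on only 1 of the 2 vehicle arrays. Klrc1 passed as well, but was not above background on either vehicle array. In the chosen processing its mean was at least 2.90-fold higher, a bound that allows for no spread. With the normexp background correction its log2 change was 0.59. Klrk1, Klrd1 and Ncr1 had changes of 1.11 to 2.64 that did not pass after adjustment. Klrg1 had changes near 0, and the 3 probes named Cd244 did not move together. Of the 17 probes, 7 passed a fold of 2 and a Benjamini-Hochberg adjusted p of 0.05 in limma, against 12.5% of all probes tested. The count was 2 without vehicle replicate 1, 0 without combination replicate 2, 3 with a replicate block, 1 without the filter on dim probes, and 0 in a fit of the 2 groups alone or by the t-test of the methods. These alternative counts stand without the share of all probes, so a drop in them is not a result about the members. With all settings as chosen, 6 of the 7 were higher (5.08% of all were) and 1, named Cd244, was lower (7.47% of all were). Quantile normalization called 6 higher and none lower among the members, and moved the split over all probes from 1620 higher and 2384 lower to 2312 higher and 1051 lower. Without adjustment 10 of the 17 passed (15.3% of all), 9 of them higher (6.12%) and 1 lower (9.17%). The t-test of the methods called none at that threshold, and the count moved under other alternatives, as given at the end. Both combination arrays lay above both vehicle arrays for 12 probes (23.3% of all) and below for 2 (47.4%). The median log2 change of the 17 was 1.77, with -0.20 over all probes, and the difference between those medians was 1.97, or 2.04 with quantile normalization and 0.96 with the normexp background correction, which called 5 members higher and 1 lower (7.99% of all in both directions).

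**Figure D1:**
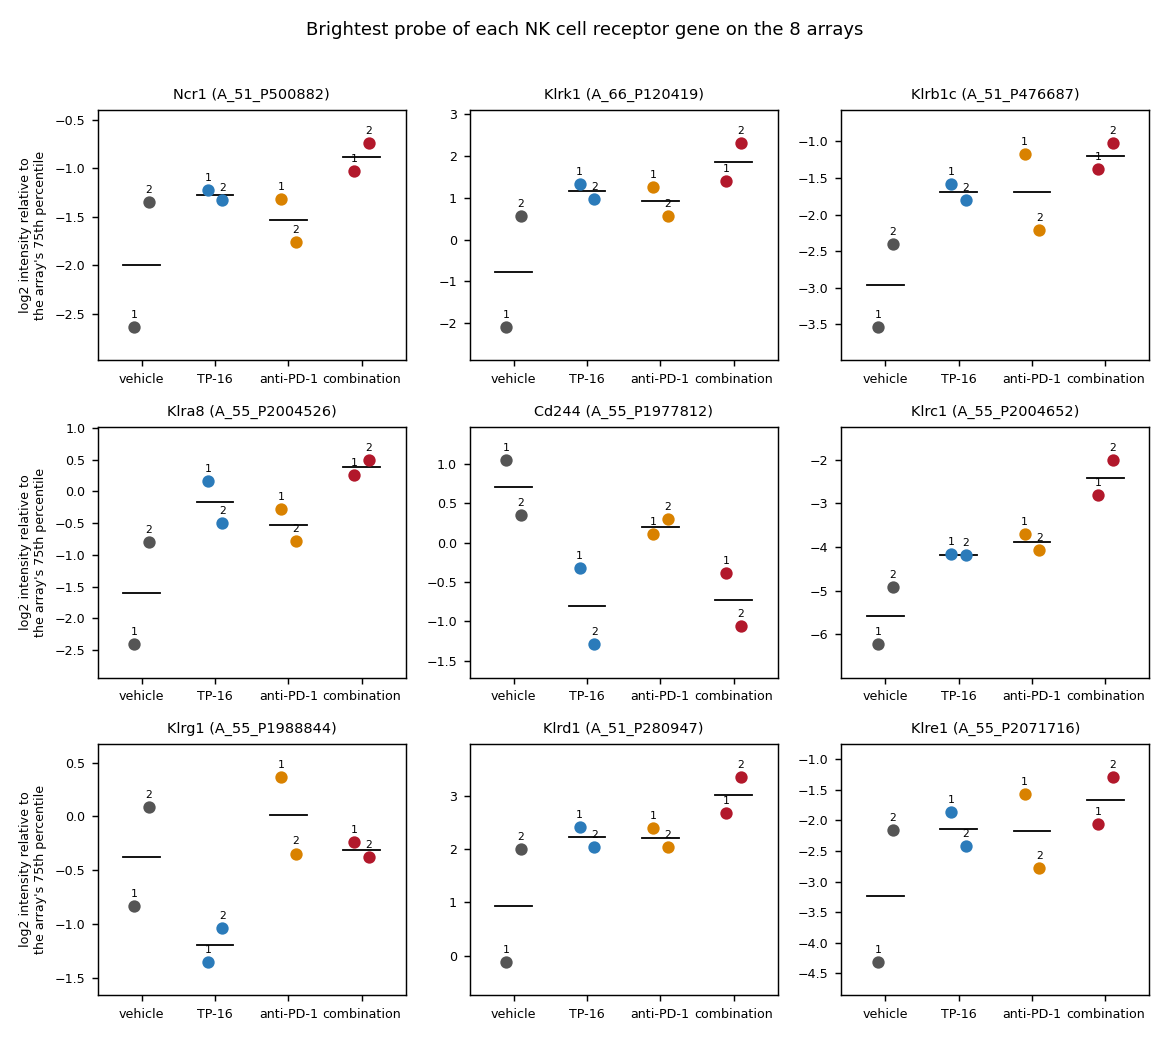
Level of the brightest probe of each of the 9 genes (vertical axis, log2 intensity relative to the 75th percentile of the array) in the 4 groups. Points are the arrays, numbered by replicate, and bars are group means. Klrd1 runs from -0.11 on vehicle replicate 1 to 3.35 on combination replicate 2, whereas Klrg1 under the combination, -0.24 and -0.38, lies between the vehicle arrays.

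Among the activating receptors, Ncr1 had log2 levels of -2.64 and -1.35 on the vehicle arrays, -1.22 and -1.33 under TP-16, -1.32 and -1.76 under anti-PD-1, and -1.03 and -0.74 under the combination. Vehicle replicate 1 stood alone at the bottom, and the other vehicle array was level with the single agents. The change under the combination was 1.11 (SE 0.42, 95% interval 0.08 to 2.14) with an adjusted p of 0.0911. Without vehicle replicate 1 the change was 0.46, with an adjusted p of 0.381. Ncr1 was above background on all 8 arrays, so transcript of this NK marker was present in every tumor sample.

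Klrk1 encodes NKG2D, which binds stress-induced ligands such as the RAE-1 and H60 proteins. Its brighter probe, A_66_P120419, read -2.10 and 0.55 under vehicle, 1.34 and 0.97 under TP-16, 1.27 and 0.57 under anti-PD-1, and 1.41 and 2.32 under the combination. Every treated array lay above both vehicle arrays, with anti-PD-1 replicate 2 only just above vehicle replicate 2. The combination change was 2.64 (SE 0.86, adjusted p = 0.0624), or 1.31 without vehicle replicate 1 and 2.30 (adjusted p = 0.0173) with the normexp correction. The dimmer probe, A_51_P189451, which crosses a junction, had a change of 2.10 (adjusted p = 0.114) and was not above background on vehicle replicate 1. Its lowest change under an alternative was 0.73. The 2 probes correlated at 0.985 over the 8 arrays, and they share the 20 bases given above.

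Klrb1c encodes NKR-P1C, an activating lectin known as the NK1.1 antigen. The probe A_51_P476687 read -3.54 and -2.40 under vehicle, -1.59 and -1.80 under TP-16, -1.17 and -2.22 under anti-PD-1, and -1.38 and -1.02 under the combination. It rose by 1.77 (SE 0.48, adjusted p = 0.0384) under the combination, and both combination arrays lay above both vehicle arrays. The probe A_55_P1979147 read -4.54 and -2.70 under vehicle, the first of them not above background, and -1.36 and -1.12 under the combination, a rise of 2.38 (SE 0.56, adjusted p = 0.0271). With the normexp correction the first probe had a change of 0.83 (adjusted p = 0.0277), below a fold of 2, and the second one of 1.10 (adjusted p = 0.00537), which passed. The third, A_52_P599514, was above background on none of the 8 arrays and was not tested.

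The 3 probes named Klra8 moved as 1, with correlations of 0.996 to 0.999. The brightest, A_55_P2004526, read -2.41 and -0.80 under vehicle, 0.17 and -0.50 under TP-16, -0.27 and -0.77 under anti-PD-1, and 0.26 and 0.49 under the combination. It rose by 1.98 (SE 0.54, adjusted p = 0.0399), and the overlapping pair rose by 2.21 (adjusted p = 0.0426) and 2.30 (adjusted p = 0.0499), with neither of the pair above background on vehicle replicate 1. Without that array the 3 changes were 1.18, 1.25 and 1.22, with adjusted p of 0.0664, 0.0539 and 0.0621. With the normexp correction they were 1.37, 1.10 and 0.93, the last below a fold of 2. Of the other Ly49 genes, Klra7 (Ly49G) rose by 1.06 (adjusted p = 0.021) and Klra17 by 2.07 (adjusted p = 0.0366), and Klra1 (Ly49A) fell by 2.50 (adjusted p = 0.0483).

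For Klrc2, which encodes the activating NKG2C, there was no probe of that name. The probe named Klrc3, A_55_P2155146, lists accessions of Klrc1, Klrc2 and Klrc3 and cannot be assigned to 1 of them. It read -4.47 and -2.62 under vehicle, the first not above background, -1.35 and -1.77 under TP-16, -1.28 and -1.57 under anti-PD-1, and -0.72 and 0.30 under the combination. Its rise under the combination was 3.34 (SE 0.64, adjusted p = 0.0165), with each combination array above each array of the other 3 groups.

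Of the inhibiting receptors, Klrc1 encodes NKG2A, which pairs with CD94 and recognizes Qa-1. Its probe read -6.24 and -4.92 under vehicle, neither above background, -4.16 and -4.20 under TP-16, -3.71 and -4.07 under anti-PD-1, and -2.82 and -2.01 under the combination. The combination arrays lay above those of both single agents, and vehicle, not above background, could not be ranked against TP-16. The fitted change under the combination was 3.17 (SE 0.47, adjusted p = 0.0109). Since vehicle gives only a bound, the mean of Klrc1 was, in the chosen processing, at least 2.90-fold higher under the combination. Under anti-PD-1 it was at least 1.04-fold higher (adjusted p = 0.275). These bounds allow for no spread between arrays. Here the bright group's mean was set against, on each vehicle array, the lowest signal of any probe above background or the probe's own signal if higher. No bound above 1 could be given for TP-16, and its change there turned to -0.12 with the normexp background correction, which also put the combination change at 0.59 (adjusted p = 0.018), below a fold of 2. With combination replicate 2 left out the change was 2.76 with an adjusted p of 0.0714.

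Klrg1, an inhibiting receptor for cadherins that is carried by mature NK cells and effector T cells, did not share this pattern. Its brighter probe read -0.83 and 0.09 under vehicle, -1.35 and -1.04 under TP-16, 0.36 and -0.35 under anti-PD-1, and -0.24 and -0.38 under the combination. The TP-16 arrays were the lowest 2 of the 8, and the combination arrays lay between the vehicle arrays. The change was 0.06 under the combination (95% interval -0.84 to 0.96, adjusted p = 0.904), turning to -0.40 without vehicle replicate 1, and -0.82 under TP-16 (adjusted p = 0.221). TP-16 differed from anti-PD-1 by -1.20 (adjusted p = 0.524), and the second probe gave -1.26. The 2 probes correlated at 0.990.

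Klrd1 and Klre1 encode partner chains. Klrd1 (CD94) forms the dimers with NKG2A and NKG2C and read -0.11 and 1.99 under vehicle, 2.42 and 2.03 under TP-16, 2.40 and 2.03 under anti-PD-1, and 2.68 and 3.35 under the combination. Vehicle replicate 1 lay 2.10 below replicate 2, a wider gap than between any other 2 arrays of a group for this probe. The change under the combination was 2.07 (SE 0.67, adjusted p = 0.0617), or 1.02 without that array and 2.04 (adjusted p = 0.0197) with the normexp correction. Klre1, which pairs with Klri1 or Klri2, read -4.31 and -2.16 under vehicle and -2.06 and -1.30 under the combination with the probe A_55_P2071716, the lowest value not above background. Its change was 1.56 (adjusted p = 0.169), and that of A_52_P592222 was 1.41 (adjusted p = 0.162). Under the alternatives the lowest changes of the 2 probes were 0.48 and 0.22 in turn. The probe A_51_P383544 was above background on no array and was not tested.

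**Figure D2:**
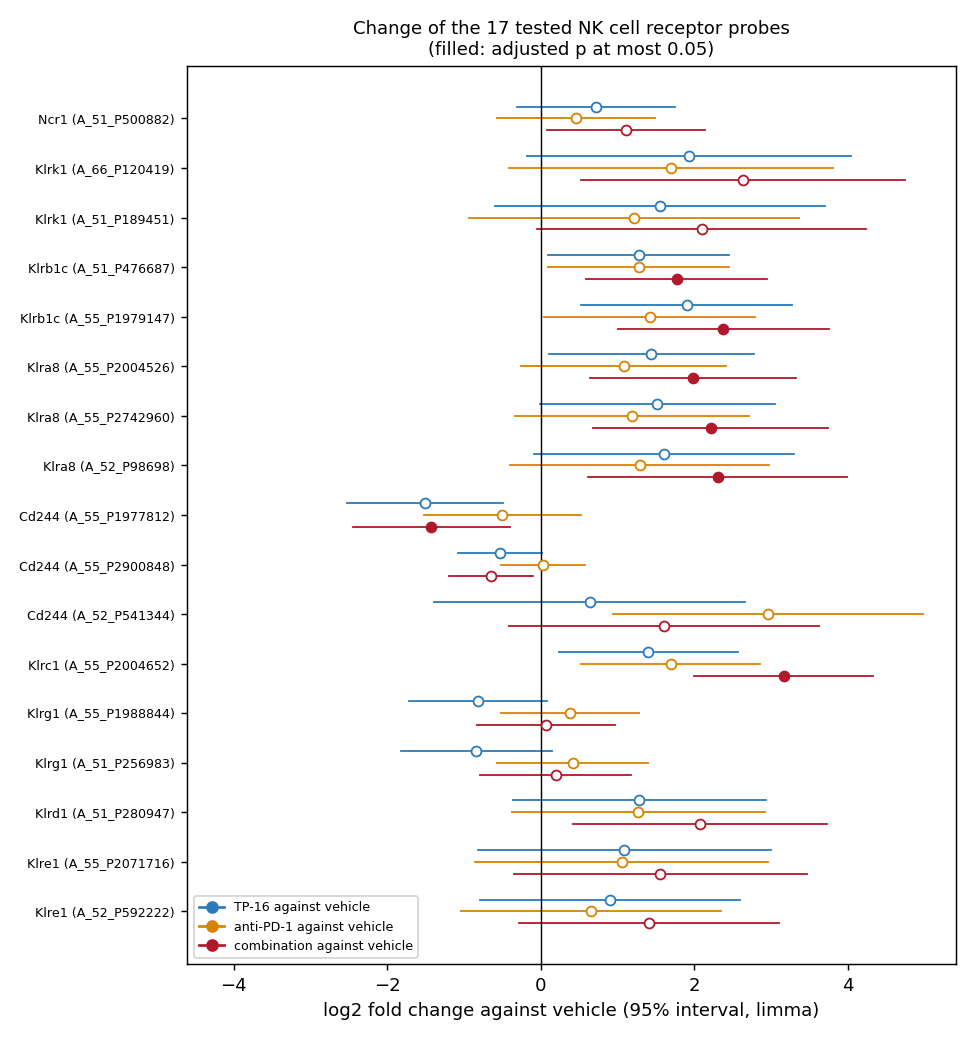
Log2 fold change against vehicle (horizontal axis) of the 17 tested probes in each treated group, with 95% limma intervals. Filled points passed an adjusted p of 0.05, which held for 7 probes under the combination and for none under a single agent.

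Cd244 encodes 2B4, a receptor of the SLAM family that binds CD48 and signals through SAP (Sh2d1a), and its 3 probes disagreed. The brightest, A_55_P1977812, read 1.05 and 0.35 under vehicle, -0.32 and -1.29 under TP-16, 0.11 and 0.29 under anti-PD-1, and -0.39 and -1.06 under the combination. It fell by 1.43 (SE 0.41, adjusted p = 0.0467) under the combination and had a change of -1.51 (adjusted p = 0.111) under TP-16. The 4 arrays with TP-16 were thus the lowest 4. A_55_P2900848 ran with it (r = 0.943), with a change of -0.65 (adjusted p = 0.0711). This probe lists no RefSeq accession and lies 24372 bases past the end of the first.

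The probe A_52_P541344, which crosses a junction of the Cd244 transcript, read -6.05 and -3.49 under vehicle, the first not above background, -3.72 and -4.54 under TP-16, -2.18 and -1.43 under anti-PD-1, and -3.13 and -3.19 under the combination. Its highest 2 arrays were those of anti-PD-1 alone, with a change of 2.96 (95% interval 0.94 to 4.98, adjusted p = 0.273). Over the alternatives that change ran from 1.04 to 4.24. Under the combination the change was 1.60 (adjusted p = 0.179), and under TP-16 0.64, turning to -0.33 with the normexp correction and -0.64 without vehicle replicate 1. It correlated with the other 2 probes at -0.123 and 0.123.

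The brightest Cd244 probe holds a stretch of 20 bases, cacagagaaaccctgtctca, that is found in 3 other probes of the array and resembles the end of the mouse B1 repeat. It was the 20-base window of the probe shared with most other probes. The 3 are named Glrx2, Tia1 and Mlxipl. Their changes under TP-16 were -0.56, -1.70 and -1.30, under anti-PD-1 -0.18, -0.67 and -0.35, and under the combination -0.78, -1.85 and -1.19. On each of the 3, as on the Cd244 probe, the 4 arrays with TP-16 were the lowest 4. The same order was found on the second Cd244 probe, A_55_P2900848, which does not hold the stretch, and on 14.1% of all probes tested. Whether the Cd244 probe reads RNA of that repeat was not tested.

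**Figure D3:**
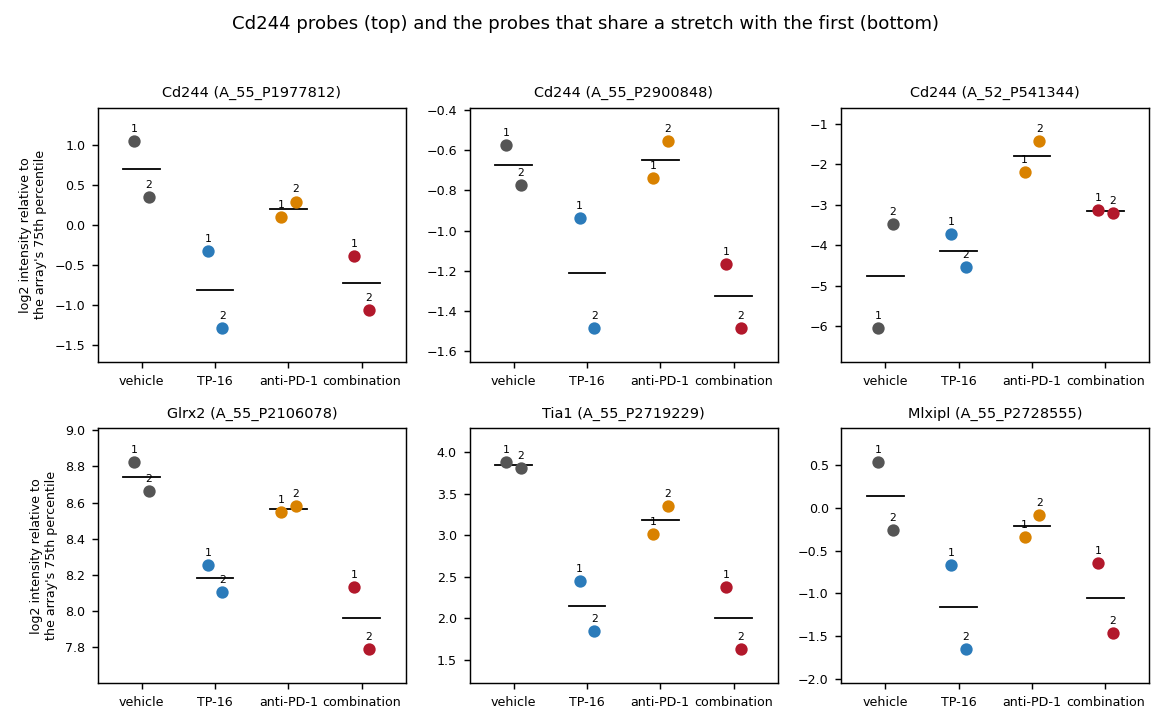
Log2 intensity relative to the 75th percentile of the array for the 3 Cd244 probes (top row) and the 3 probes that share 20 bases with the brightest of them (bottom row), with the 2 arrays of each group as points and the mean as a bar. The bottom row and the first and second Cd244 probes are lowest under TP-16 and the combination, while the third Cd244 probe is highest under anti-PD-1, at -2.18 and -1.43.

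Against vehicle, no member passed the adjusted threshold in limma under TP-16 (0.0533% of all probes did) or under anti-PD-1 (0.0721%). Without adjustment 5 passed under TP-16 (6.18% of all), 4 higher (1.57%) and 1 lower (4.61%). The higher ones by fitted value were Klrc1, both Klrb1c probes and the brightest Klra8 probe, and the lower was Cd244. Klrc1 was not above background on either vehicle array, so no bound above 1 could be given for it under TP-16. Its change there was -0.12 with the normexp correction, and its bound under anti-PD-1 was 1.04-fold. Under anti-PD-1 4 passed (3.83%), all of them higher (1.67%, with 2.16% lower over all probes), namely Klrc1, both Klrb1c probes and the Cd244 junction probe. The t-test of the study's methods called none of them at either threshold. The unadjusted counts also moved with other processing and with single arrays left out, as given at the end. The medians of the 17 changes were 1.27 under TP-16 and 1.19 under anti-PD-1, with -0.12 and -0.10 over all probes. With the normexp correction both member medians were 0.36, with -0.17 and -0.09 over all probes. These comparisons use the same 2 vehicle arrays.

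Whether the combination went beyond its parts was compared directly. Against TP-16 alone no member passed after adjustment and no probe of the array did (0%), and against anti-PD-1 alone no member did (0.0157% of all). Without adjustment 2 members passed the fold and p thresholds against TP-16 (4.34% of all) and 1 against anti-PD-1 (4.27%), all of them higher. Both combination arrays lay above both TP-16 arrays for 12 of the 17 probes (22.5% of all) and below for 0 (36.8%), and above both anti-PD-1 arrays for 10 (24.5%) and below for 3 (41.9%). Klrc1 was 1.76 above TP-16 (95% interval 0.60 to 2.93, adjusted p = 0.142) and 1.48 above anti-PD-1 (0.31 to 2.64, adjusted p = 0.132). The 2 single agents did not differ in any member after adjustment (0.0188% of all), with 3 members past both thresholds without it (1.55%). The departure from additivity passed for no member after adjustment (0%) and for none without (3.2%), and its intervals were wide: for Klrk1 it was -0.98 (-3.96 to 2.00) and for Klrc1 0.07 (-1.57 to 1.72). The t-test of the methods, after adjustment, called no member in any comparison of 2 groups for which it was run.

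Single arrays decided much of the count. 13 of the 17 probes were lowest on vehicle replicate 1, as were 14.3% of all probes, and 12 were highest on combination replicate 2, as were 16.7%. Vehicle replicate 1 lay below replicate 2 by 0.92 to 2.73 on 15 probes, all but 2 named Cd244. 8 of the 17 were not above background on vehicle replicate 1, and 1 (Klrc1) on vehicle replicate 2. Without vehicle replicate 1, 2 probes passed under the combination (14.1% of all did), Klrc1 with a change of 2.51 and Klrb1c (A_55_P1979147) with 1.45. Without vehicle replicate 2, 13 passed, all higher (11.1% of all in both directions). Without combination replicate 2 none passed, and no probe of the array did, whereas without combination replicate 1 only Klrc1 passed among the members (11.5% of all). Leaving out an array of TP-16 gave 3 (11.3%) and an array of anti-PD-1 gave 2 (10.3%). Where 1 array of a group was left, it was taken to vary like the other groups.

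**Figure D4:**
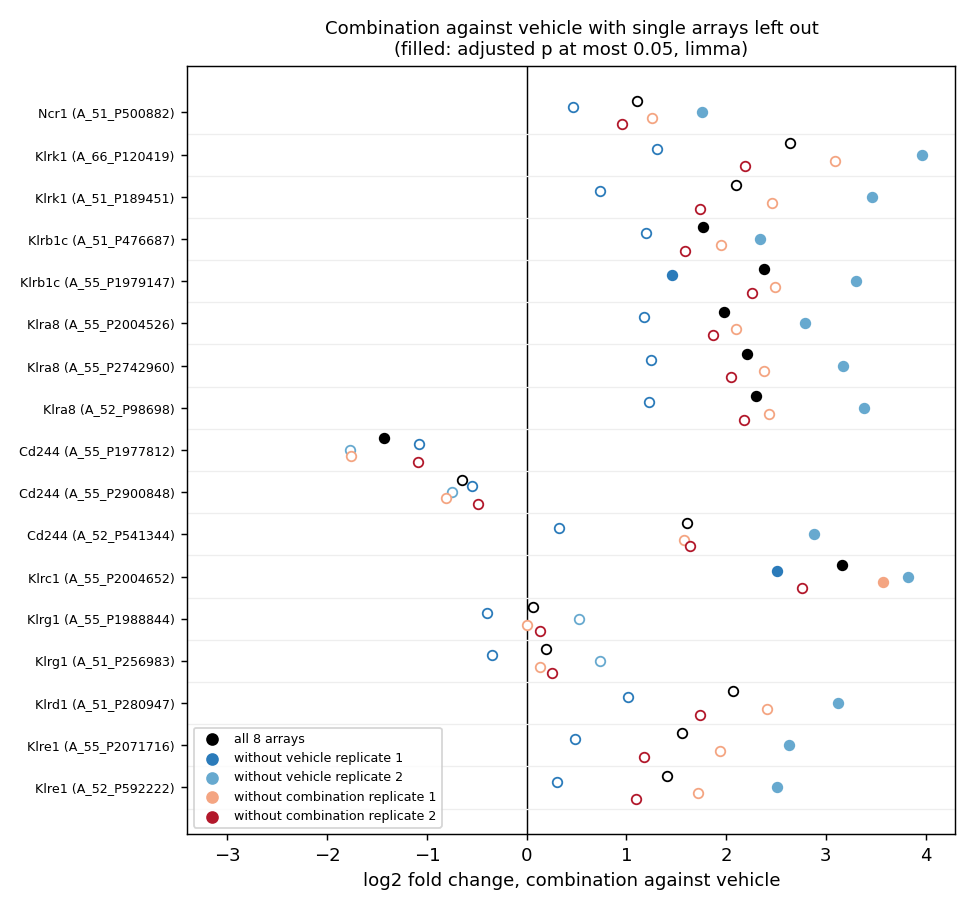
Log2 fold change of the 17 probes, combination against vehicle (horizontal axis), with all 8 arrays and with 1 vehicle or combination array left out. Points are fitted values, filled where the adjusted p was at most 0.05. Values drop towards 0 for most probes without vehicle replicate 1, as for Ncr1 from 1.11 to 0.46.

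The adaptors of these receptors were described by a list of 15 genes, of which 14 were tested. Under the combination 6 rose and none fell, with a median log2 change of 1.04, whereas 5.08% of all probes tested were higher and 7.47% lower, as holds for each list below. SAP (Sh2d1a, 2.19), the kinases Syk (1.58) and Zap70 (2.95), the phosphatases Ptpn6 (1.20) and Inpp5d (1.56) and the exchange factor Vav1 (1.22) passed. DAP10 (Hcst, 0.88, adjusted p = 0.176) and DAP12 (Tyrobp, 0.60, adjusted p = 0.157) did not, nor did Fcer1g (0.88), Cd247 (-0.27), Sh2d1b1 (0.03), Lat (2.00, adjusted p = 0.0726), Lat2 (0.20) or Ptpn11 (0.16). Most of those that passed are used by T cells or myeloid cells as well. These calls rested on combination replicate 2, as did every call of the array in this comparison.

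Of 20 genes listed as ligands 15 were tested. Under the combination 2 were higher (5.08% of all probes) and 1 lower (7.47%), with a median of -0.32. Which member, if any, the Clec2 genes of the list bind was not tested. Cd48, the ligand of 2B4, rose by 1.49 (adjusted p = 0.0144) and Clec2i by 1.16 (adjusted p = 0.0186), and Clec2f fell by 1.78 (adjusted p = 0.0205). The NKG2D ligands did not reach a fold of 2: Raet1a (-0.04), Raet1b (-0.42), Raet1c (-0.41), Raet1e (-0.34), H60a (-0.56), H60b (-0.65, adjusted p = 0.0293) and Ulbp1 (-0.32). H2-T23, the Qa-1 gene read by NKG2A, had a change of 0.26 (adjusted p = 0.39), and the cadherins read by Klrg1 had 0.82 (Cdh1) and -0.43 (Cdh2). Clec2d (0.11) and Clec2g (0.82) did not pass.

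Of 10 transcription factors tested, 4 rose: Tbx21 (T-bet) by 2.90, Tox by 3.70, Gata3 by 1.30 and Id2 by 1.28. Eomes, with T-bet the factor that sets NK cell identity, had a change of 1.28 (adjusted p = 0.0787). Ets1 passed the adjusted p at 0.67, below a fold of 2. Nfil3 (-0.20), Zeb2 (0.19), Prdm1 (0.37) and Runx3 (0.32) did not pass. Of 10 effector genes 6 rose, among them granzyme B (Gzmb, 1.64) and Nkg7 (2.76), while granzyme A (Gzma, 1.08, adjusted p = 0.249) and perforin (Prf1, 0.76, adjusted p = 0.228) did not pass. Of 17 other genes of the NK gene complex tested 4 rose and 1 fell, with Klrc3 (3.34), Klrb1f (2.63) and Klra1 (-2.50) the most changed, and of 15 receptors shared with T cells 9 rose, led by Cd226 (3.50), Lag3 (3.22) and Cd2 (3.20). All of these calls rested on combination replicate 2, which held for every call of the array under the combination and is no trait of these lists.

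T cell markers also rose under the combination. Of 12 tested 8 rose, with a median log2 change of 2.70, and Cd3e rose by 1.81 (adjusted p = 0.0273) and Cd8a by 3.76 (adjusted p = 0.0477). Cd8b1 (3.29, adjusted p = 0.0524) and Cd4 (0.41, adjusted p = 0.0881) did not pass. The summed log2 level of the 12 was 2.43 and 4.14 under vehicle, 4.54 to 4.98 under the single agents, and 5.24 and 5.99 under the combination. It was lowest on vehicle replicate 1 and highest on combination replicate 2, as were 13 and 12 of the 17 member probes in turn. Cd3e read 0.15 and 1.36 under vehicle and 2.24 and 2.89 under the combination. The T cell calls too rested on combination replicate 2, like all others of the array. The part of T cells in the change of the members was not tested.

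**Figure D5:**
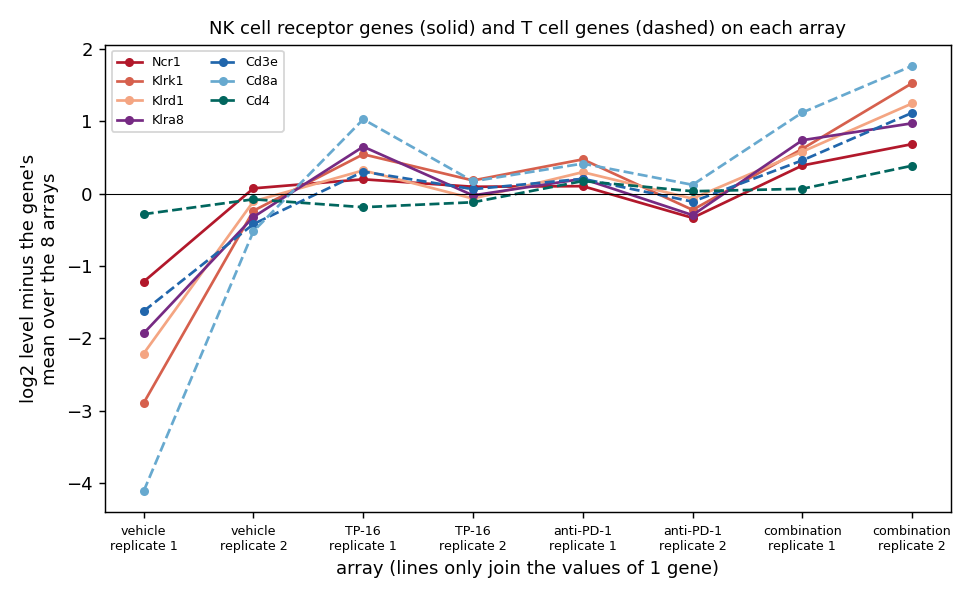
Log2 level minus the mean over the 8 arrays (vertical axis) on each array. Solid lines are Ncr1, Klrk1, Klrd1 and the brightest probe named Klra8, and dashed lines are Cd3e, Cd8a and Cd4. Each is lowest on vehicle replicate 1 and highest on combination replicate 2, and Cd4 has the narrowest range of them, with levels from -0.16 to 0.51.

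Markers of other cell types also differed between the groups. Under the combination 6 of 7 mast cell markers (median 1.41) and 5 of 11 macrophage and monocyte markers (0.94) rose, 2 of 9 B and plasma cell markers rose and 3 fell, and 2 of 9 neutrophil markers fell, beside 5.08% higher and 7.47% lower over all probes. All 7 red blood cell markers fell (median -2.28), from summed levels of 9.94 and 9.29 under vehicle to 7.15 and 7.48. Of the markers of muscle (10), skin (3) and adipose tissue (7) none passed, and of 7 tumor and division markers 1 fell. Of 9 genes for growth and attraction of NK cells 2 rose (median 0.95). Under TP-16 or anti-PD-1 alone no gene of these lists passed a fold of 2 and the adjusted p. Without adjustment all 7 red blood cell markers were lower under TP-16 (median -1.95, 4.61% of all probes) and under anti-PD-1 (median -1.53, 2.16%), and 4 of 7 mast cell markers were higher under anti-PD-1 (1.67%). T cell markers higher without adjustment were 7 of 12 under TP-16 (1.57%) and 5 under anti-PD-1. The part of these cells in the change of the members was not tested. Calls of these lists under the combination rested on combination replicate 2, as on the whole array.

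Likeness between genes was described by Pearson correlation over the 8 arrays, which share the contrast between vehicle replicate 1 and the rest, over the brightest probe of each of 21497 gene names. Klrk1 and Klrd1 correlated at 0.994, each the sixth most like the other. Ncr1 was at 0.974 with Klrk1 and 0.971 with Klrd1. The genes most like Klrk1 were Ctsw (0.997), Clec12a and Slfn2 (0.995 each), Cd3d (0.995) and Skap1 (0.994). Those most like Klrd1 were Cd52 (0.998), Clec12a (0.998), Gm8909 (0.997), Lag3 (0.994) and Camk4 (0.994). For Ncr1 they were Slfn2 (0.990), Gm8369 (0.989), AF067061 (0.987), Fndc5 (0.986) and Cd40 (0.985). Klrg1 stood apart at 0.0975 to 0.318 with the 7 other lectin-like or NKp46 genes, and the brightest Cd244 probe was at -0.78 to -0.651 with those 7.

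Since most members moved together, their promoters were searched, as 250 bases before to 50 after the start in RefSeq (GRCm38.p6), for letters of 3 motif families, on both strands: RUNX (TGTGGT), T-box (TCACAC) and ETS (AGGAAG). Entries were found for 8 of the 10 genes, with Cd244 as Cd244a, in 12 windows that overlap within a gene, and Klrd1 and Klrg1 had no entry. RUNX letters were held by 6 of the 8 genes (Ncr1, Klrk1, Klrb1c, Klre1, Klrc1 and Klrc2), against 18.9% of 27025 genes. T-box letters were held by 2 (16.4% of all) and ETS letters by 2 (38.4%). The 250 bases before the start are shown for 3 activating receptors, with the letters of the motifs in capitals.
Ncr1, chr7:4337465-4337714, plus strand: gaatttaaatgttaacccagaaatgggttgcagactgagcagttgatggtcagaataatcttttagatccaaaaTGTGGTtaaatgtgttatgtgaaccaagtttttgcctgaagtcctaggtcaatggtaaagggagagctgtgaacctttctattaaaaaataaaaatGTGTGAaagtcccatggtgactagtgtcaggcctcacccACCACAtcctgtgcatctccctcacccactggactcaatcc
Klrk1, chr6:129623865-129624114, minus strand: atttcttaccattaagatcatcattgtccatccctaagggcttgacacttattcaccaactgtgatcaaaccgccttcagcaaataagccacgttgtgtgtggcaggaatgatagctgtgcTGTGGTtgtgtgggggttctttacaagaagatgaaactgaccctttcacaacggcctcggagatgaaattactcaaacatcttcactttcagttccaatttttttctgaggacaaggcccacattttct
Klrb1c, chr6:128788642-128788891, minus strand: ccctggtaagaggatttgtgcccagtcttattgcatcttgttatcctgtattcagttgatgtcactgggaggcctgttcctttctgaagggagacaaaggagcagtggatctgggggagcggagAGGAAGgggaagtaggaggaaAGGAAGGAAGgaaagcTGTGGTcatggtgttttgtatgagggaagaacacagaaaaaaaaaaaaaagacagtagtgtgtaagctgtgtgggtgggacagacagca
In Ncr1 the RUNX letters begin 176 and 41 bases before the start and the T-box letters 80 bases before. In Klrk1 the RUNX letters begin 129 bases before the start. In Klrb1c they begin 89 bases before the start, after 3 runs of ETS letters, of which the last pair overlap. A match of letters is not a bound site.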

How the data were processed

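RNA of whole CT26 tumors was measured on 8 one-colour Agilent arrays, 2 for each of 4 groups. The design text speaks of biological replicates, but the sources do not say whether a sample was 1 tumor or a pool, so p-values measure the spread between these samples. Groups and replicate numbers came from the sample labels. The authors deposited the spot intensity of each array, background-subtracted and detrended by Agilent Feature Extraction 10.7.1.1, along with normalized log2 values from GeneSpring. The deposited log2 columns have the same distribution on every array and their centring is not stated, so they served as an alternative only.

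Control spots were removed, spots without an outlier mark were averaged per probe, and 56567 probes remained. Each array was scaled by its own 75th percentile and taken to log2. A probe was tested where some group had both of its arrays well above background, which left 31912. limma 3.58.1 (R 4.3.3) fitted the 4 group means to all 8 arrays jointly, unblocked, with its default moderated spread. P-values were adjusted over all 31912 probes by the method of Benjamini and Hochberg. Calls asked for a fold of 2 and an adjusted p of 0.05, or an unadjusted p of 0.05 as in the study's methods. The scripts were tested on simulated data. No depth exists for arrays, and their number limits the precision.

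Gene lists were taken with the brightest probe per gene. Every member probe, adaptor, ligand and transcription factor was to be named, with selected T cell and effector genes, up to 3 of each other list and the 5 genes most like Ncr1, Klrk1 and Klrd1. Klrb1f, Cd226 and other list genes follow from that rule, and Klra7 and Klra17 were named after their values were seen, as were Glrx2, Tia1 and Mlxipl. The members, lists and motifs were chosen with earlier results of these data known. Alternatives were other normalizations and background corrections, other probe filters, a replicate block, pairwise fits, other moderation, the t-test of the methods, leaving out each array, and a fold of 1.5. Figures were drawn with matplotlib 3.10.9.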

Additional observations from a re-analysis of the deposited data

How the results depend on the processing

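With 2 arrays a group, precision is low, and 8 of the 17 member probes were not above background on vehicle replicate 1. Over the 160 counts of members past a threshold under an alternative, 115 stayed within 1.5 times the value with all settings as chosen and 45 did not. The cause of these moves was not tested, except that fits on fewer arrays or on 2 groups have fewer degrees of freedom. Where a count below stands without the share of all probes, its move is not a result about the members.

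With quantile normalization or the authors' log2 values, 1 member, Klrc1, passed the adjusted p under TP-16, higher, against 0 (0.439% and 0.436% of all probes). Klrc1 was not above background on either vehicle array. With the normexp correction 1 member passed as lower under TP-16 (1.56% of all) and 1 as lower in the combination against anti-PD-1 (1.32%), and the counts at the unadjusted p were 2 under TP-16, 1 under anti-PD-1 and 6 under the combination. Without the filter on dim probes 1 of 19 member probes passed the adjusted p under the combination. With probes above background on all 8 arrays, of which 9 are members, the unadjusted counts were 3 under TP-16, 1 under the antibody alone and 6 under the combination. In fits of the 2 groups compared, 0 passed the adjusted p under the combination, and 2 passed the unadjusted p under TP-16 and 2 under anti-PD-1. The t-test of the methods called 0 members in all 3 comparisons with vehicle at the unadjusted p and 0 under the combination after adjustment. At a fold of 1.5 the adjusted count under the combination was again 7.

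Deviations of same-numbered replicates from the group means correlated between -0.193 and 0.29, which does not settle what they share. Replicates numbered 1 lay in slide columns 1 and 3, and those numbered 2 in columns 2 and 4. With a replicate block 3 members passed the adjusted p under the combination, against 7, and 3 passed the unadjusted p under TP-16, against 5. All arrays lay on 1 slide, so a slide block could not be run.

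Leaving out each array in turn gave adjusted counts of 0 to 1 under TP-16, 0 to 2 under anti-PD-1 and 0 to 13 under the combination, and unadjusted counts of 1 to 14, 1 to 13 and 2 to 14 in the same order. The lowest count for the combination came without combination replicate 2 and the highest without vehicle replicate 2. No change that had passed the adjusted p turned sign. Under TP-16 the range was -0.64 to 1.92 for Cd244 (A_52_P541344) and -0.20 to 2.01 for Klre1 (A_52_P592222). With the normexp correction the change under TP-16 was -0.33 for that Cd244 probe and -0.12 for Klrc1, which had passed the unadjusted p there. Under anti-PD-1 the leave-out range was -0.15 to 2.58 for Klrk1 (A_51_P189451), -0.12 to 0.96 and -0.077 to 0.84 for both Klrg1 probes, -0.19 to 1.10 for Ncr1, -0.45 to 1.76 and -0.018 to 2.13 for both Klre1 probes, and -0.073 to 0.13 for Cd244 (A_55_P2900848). Under the combination it was -0.34 to 0.73 and -0.40 to 0.52 for both Klrg1 probes. No other member probe turned sign in a comparison with vehicle under any alternative run.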
